A study of Mus musculus with 8 samples.

Results

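The 10 genes described here are Egr1, Egr2 and Egr3 (zinc-finger transcription factors of the early growth response family), Nr4a1, Nr4a2 and Nr4a3 (orphan nuclear receptors), Ier2, Ier3 and Ier5 (immediate early response genes), and Srf (serum response factor). They were chosen by name, with earlier results of these data known. A probe set belonged to one of them where the platform annotation gave that gene as its single symbol. This gave 22 probe sets of 45037 tested, and 10 genes of 18193 named on the array. RNA was measured on 8 Affymetrix arrays from C57BL/6 mouse embryonic fibroblasts that lacked Stat5 and carried a STAT5 mutant brought in by retrovirus. In EA cells the EE of the binding domain was changed to AA, and in YF cells the mutant was Y694F, a change at the tyrosine that is phosphorylated when STAT5 is activated. Each kind of cell was left without stimulation (the groups EA and YF) or given growth hormone for 120 minutes (EA_GH and YF_GH), with 2 arrays a group, which the series text describes as biological duplicates. All 4 groups are Stat5-null with a mutant STAT5, and cells with normal STAT5, or with no STAT5 at all, are not analysed here. The dose of the hormone, whether serum was withdrawn, and how many transduced populations each mutant stands for are not stated in the labels, so a difference between the mutants cannot be told apart from a difference between the transduced cells.

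Immediate early genes are switched on directly by signals that reach a cell, without the need for new protein, and their messages are typically short-lived. Growth factors and growth hormone act in part through the ERK cascade, which phosphorylates ELK1 and its relatives; these bind beside SRF at serum response elements, and such elements drive Egr genes, Fos and Srf itself. SRF also works with the actin-regulated cofactors Mrtfa and Mrtfb at genes of the cytoskeleton, while cAMP response elements (CRE), bound by CREB, are a classical input to the Nr4a genes. EGR proteins bind GC-rich sites and induce Nab2, a corepressor that holds EGR activity back. NR4A receptors act without a known natural ligand, and Nr4a1 and Nr4a2 can pair with the retinoid X receptor RXRA.

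Promoter windows were searched for letters that match the sites of these inputs, and sites further from the start were not searched. RefSeq windows of 250 bases before an annotated start (build GRCm38.p6) were matched by symbol for 7 of the 10 genes, and Egr1, Egr3 and Ier2 had no entry. The search for 7 motifs on both strands covered 32851 windows of 27025 genes. Positions are given as the number of bases from the start site to the far end of a match. The 3 Nr4a windows are printed because each holds 4 matches to the CRE half-site TGACG, shown in capitals (CGTCA on the other strand). They lie at chr15:101266596-101266845 (Nr4a1, plus strand), chr2:57124004-57124253 (Nr4a2, minus strand) and chr4:48045055-48045304 (Nr4a3, plus strand), each read 5′ to 3′ along the gene:
Nr4a1: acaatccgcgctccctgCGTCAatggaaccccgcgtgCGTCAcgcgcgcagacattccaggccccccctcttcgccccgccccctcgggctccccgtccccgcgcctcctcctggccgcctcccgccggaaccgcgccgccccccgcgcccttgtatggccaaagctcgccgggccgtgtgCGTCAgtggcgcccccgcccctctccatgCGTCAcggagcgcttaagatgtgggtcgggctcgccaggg
Nr4a2: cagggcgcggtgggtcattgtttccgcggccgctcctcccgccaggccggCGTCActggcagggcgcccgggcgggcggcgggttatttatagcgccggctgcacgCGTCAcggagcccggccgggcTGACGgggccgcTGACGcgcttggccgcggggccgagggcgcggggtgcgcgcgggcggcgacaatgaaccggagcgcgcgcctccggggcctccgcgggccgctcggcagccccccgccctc
Nr4a3: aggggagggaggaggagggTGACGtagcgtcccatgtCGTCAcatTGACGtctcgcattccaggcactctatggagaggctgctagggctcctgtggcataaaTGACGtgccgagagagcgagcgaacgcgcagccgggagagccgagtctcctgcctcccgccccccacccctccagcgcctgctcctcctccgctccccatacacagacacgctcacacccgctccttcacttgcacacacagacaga
The half-site occurred at least once in 17.8% of all windows and 4 or more times in 0.137%. These shares cover windows of any GC content, while the Nr4a1, Nr4a2 and Nr4a3 windows had 74.4%, 80.0% and 63.6% GC. In Nr4a1 the matches lay 233, 213, 69 and 40 bases before the start, in Nr4a2 at 200, 144, 123 and 111, and in Nr4a3 at 231, 213, 205 and 147. The full palindrome TGACGTCA, which contains the half-site on both strands, was in 1.55% of windows and in none of the members'.

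The windows of Egr2 (the third of its 5 annotated starts, chr10:67537619-67537868, plus strand) and Srf (chr17:46556163-46556412, minus strand) are printed for the CArG box, the core of a serum response element that SRF binds, and the window of Ier3 (chr17:35821463-35821712, plus strand) for an NF-kB site; these and any CRE half-sites are in capitals:
Egr2: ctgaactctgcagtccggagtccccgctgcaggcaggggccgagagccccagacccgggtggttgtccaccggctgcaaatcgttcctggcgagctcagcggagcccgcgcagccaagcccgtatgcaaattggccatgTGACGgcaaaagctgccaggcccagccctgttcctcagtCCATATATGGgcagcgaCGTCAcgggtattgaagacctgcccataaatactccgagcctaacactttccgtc
Srf: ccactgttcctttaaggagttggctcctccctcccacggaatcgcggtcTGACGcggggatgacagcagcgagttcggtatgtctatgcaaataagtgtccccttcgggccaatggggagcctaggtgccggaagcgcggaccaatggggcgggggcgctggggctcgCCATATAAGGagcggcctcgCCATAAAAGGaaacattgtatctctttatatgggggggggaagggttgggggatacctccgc
Ier3: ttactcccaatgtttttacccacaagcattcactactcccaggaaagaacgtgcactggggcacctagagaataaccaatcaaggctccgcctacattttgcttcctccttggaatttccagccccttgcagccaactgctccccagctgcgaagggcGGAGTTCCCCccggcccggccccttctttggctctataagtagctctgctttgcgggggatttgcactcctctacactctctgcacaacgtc
A CArG box occurred in 1.47% of all windows and 2 or more in 0.0183%. Egr2 had 1 at 72 bases before that start, together with CRE half-sites at 111 and 55. The window of its first start had no match to any motif. That of its second had a different CArG box at 72 bases and no half-site. The windows of its later starts overlap the printed one and hold the same sites. Srf had 2 CArG boxes, at 82 and 62, with a half-site at 201. Ier3 carried its NF-kB match at 92 bases, a motif present in 3.9% of windows. The EGR site GCGTGGGCG (0.536% of windows), the NR4A site AAAGGTCA (1.34%) and the STAT5 motif TTCNNNGAA (7.02%) were in no member's window, and the window of Ier5 had no match to any of the 7 motifs. The members' windows ranged from 54.0% to 80.0% GC. A match describes letters in a window, and binding was not measured.

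**Figure D1:**
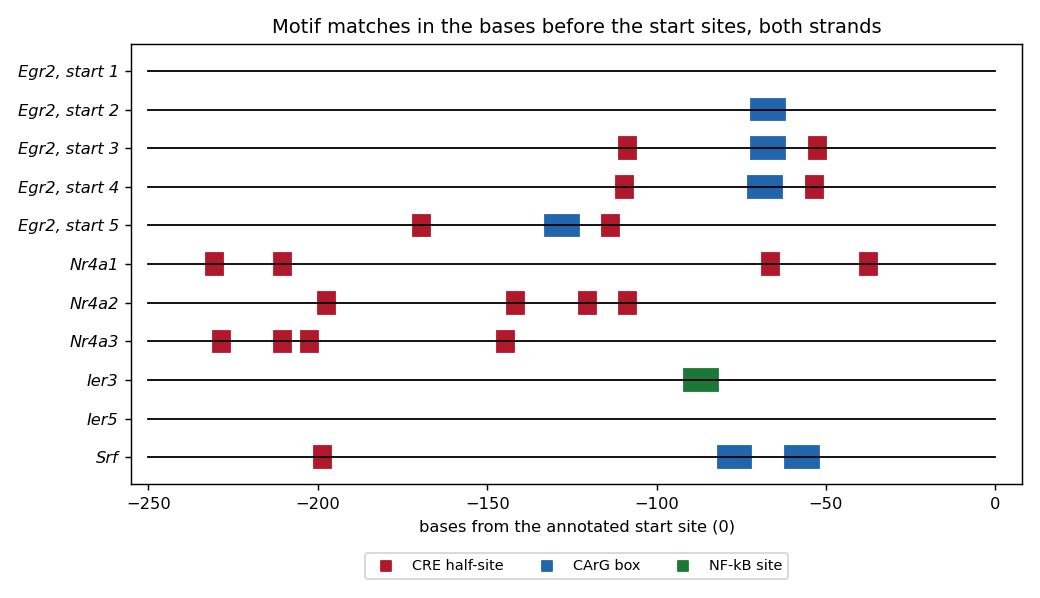
Motif matches in the promoter windows of the members, plotted by distance before the start site in bases, with 1 line per annotated start and a colour for each motif. Egr2 has 5 lines, 1 for each of its starts. The 3 Nr4a windows carry 4 CRE half-sites each, Srf carries 2 CArG boxes, and Ier5 carries no match.

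The deposited values are log2 expression, 1 per probe set and array, and a change of 1 is a doubling of signal. A probe set with a mean under 4 over the 8 arrays lies in the dense low group that held 55% of all probe sets; the scale there is uncertain. Of the members' 22 probe sets, 14 were at or above this bound and 8 below it (values of 1.08 to 2.67), and each of the 10 genes had at least 1 above. For each gene the probe set with the highest mean over all arrays is used, and the others are given where they differ. The level of one probe set is not compared with that of another. Differences were tested with limma over all 45037 probe sets with Benjamini-Hochberg adjustment, and an adjusted p under 0.05 is called passing. The 2 arrays a group limit the precision, and a p-value measures only the spread between these arrays. A fit without 1 array leaves 1 array in its group and takes the spread from the others. A call gained that way is no evidence of a difference.

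EA and YF arrays separated along the first principal component of all probe sets (69.9% of the variance). On the second (12.6%) replicate 1 of YF_GH stood apart, at -55.8, against -14.3 to 32.6 for the 7 other arrays, so calls lost without it, and values it moves by over 1.5 times, are also given without it. Fibroblast markers were present: 10 of 10 lay above the bound, with summed log2 levels of 112 to 115 in the EA and EA_GH arrays and 123 to 125 in the YF and YF_GH arrays. Thy1 and Dcn made most of that gap (EA minus YF -4.96 and -4.45, averaged over treatments), and Dcn had group means under the bound in EA and EA_GH. Macrophage markers were above the bound for 2 of 8, Csf1r and Cd68, with summed levels of 33.6 to 35.3 in EA, 33.8 to 34.3 in EA_GH, 30.5 to 30.7 in YF and 31.3 to 32.3 in YF_GH. Cd68 was higher in EA cells by 3.15, while Ptprc, Itgam, Adgre1 and Lyz2 lay in the low group. Tek alone of 5 endothelial markers was above the bound, with sums of 16.6 to 17.2 in EA and EA_GH and 18.04 to 18.82 in YF and YF_GH. None of 6 epithelial markers (sums of 13.4 to 14.1 over all arrays) or 5 skeletal muscle markers (11.8 to 12.9) reached it. The part of these markers in any difference between the mutants was not tested. In bulk RNA, fewer cells of a kind and less RNA per cell cannot be told apart.

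**Figure D2:**
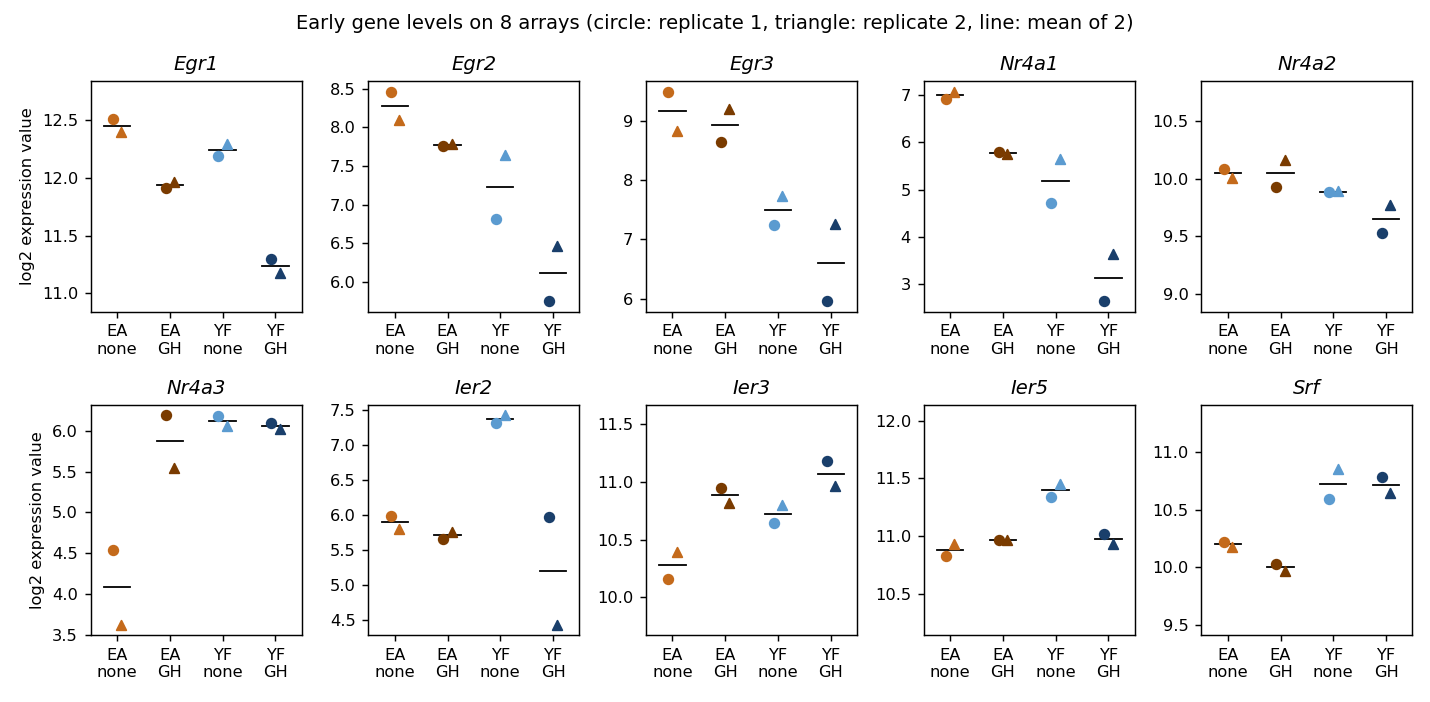
Log2 expression of the 10 early genes on each of the 8 arrays, 1 panel per gene and 1 point per array, grouped as EA, EA_GH, YF and YF_GH, for the probe set with the highest mean. Egr1 is lowest in YF_GH, Egr2, Egr3 and Nr4a1 are higher in the EA arrays than in the YF arrays of the same treatment, Nr4a3 is low only in unstimulated EA, and Ier2 is high only in unstimulated YF.

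Egr1, the family member most widely used as a readout of ERK signalling, was lower after hormone in YF cells, while in EA cells a smaller difference of the same sign did not pass. Its 2 arrays read 12.51 and 12.40 in EA, 11.91 and 11.96 in EA_GH, 12.19 and 12.30 in YF, and 11.30 and 11.17 in YF_GH. Every hormone array lay below every unstimulated array of the same mutant, and both YF_GH arrays lay below the 6 others. With hormone, Egr1 fell by 1.01 in YF cells (SE 0.07, n = 2 against 2 arrays, 2.01-fold, limma adjusted p = 0.0261). In EA cells the value was -0.52 (SE 0.07, adjusted p = 0.149), and the difference between these responses, 0.49 (SE 0.10, 95% interval 0.25 to 0.74), had an adjusted p of 0.304. Averaged over the mutants, Egr1 fell by 0.76 (SE 0.05, adjusted p = 0.0153). The call in YF cells was lost when any single array of EA, EA_GH or YF was left out (adjusted p 0.0758 to 0.107), and it was kept without YF_GH replicate 1 (0.0468) or replicate 2 (0.0259). The averaged call was lost in the same 6 cases (adjusted p 0.0573 to 0.0781).

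Between the mutants, Egr1 was higher in EA cells under hormone by 0.70 (SE 0.07, 1.63-fold, adjusted p = 0.00489). Without hormone the value was 0.21 (SE 0.07, adjusted p = 0.155), although both EA arrays were above both YF arrays. Averaged over treatments it was higher in EA by 0.46 (SE 0.05, adjusted p = 0.00339), with the 4 EA and 4 YF arrays overlapping because EA_GH lay below YF.

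Egr2, a factor best known for peripheral myelination and T-cell anergy, read 8.46 and 8.09 in EA, 7.75 and 7.79 in EA_GH, 6.81 and 7.64 in YF, and 5.75 and 6.47 in YF_GH. All 4 EA and EA_GH arrays were above all 4 YF and YF_GH arrays. EA and YF cells differed across the whole array (69.9% of the variance on the first component). The share of all probe sets with such a split is not given, here or for Egr3, Nr4a1, Nr4a2 and Srf below. Under hormone it was higher in EA cells by 1.66 (SE 0.36, 3.16-fold, adjusted p = 0.0496), and averaged over treatments by 1.35 (SE 0.25, adjusted p = 0.0220). The call under hormone was lost without YF_GH replicate 1 (1.30, adjusted p = 0.158) or any single EA or EA_GH array (1.64 to 1.68, adjusted p 0.0835 to 0.208), and the averaged call without any single EA or EA_GH array (1.26 to 1.45, adjusted p 0.0507 to 0.0835). The call under hormone was also lost with quantile normalization (adjusted p = 0.0617), array median centring (0.0697), the robust eBayes option (0.0581) and a fit of only the groups compared (0.0746). Its other probe set, 1427683_at, read 7.54 and 7.22, then 6.69 and 6.73, in EA and EA_GH, and 5.79 and 6.48, then 5.15 and 5.21, in YF and YF_GH. That probe set passed in both states, with EA higher by 1.24 without hormone (SE 0.24, adjusted p = 0.0333) and by 1.53 with it (SE 0.24, adjusted p = 0.0190), whereas the brighter one gave 1.05 without hormone (adjusted p = 0.171). The hormone values did not pass in either mutant: -0.50 in EA (SE 0.36, adjusted p = 0.869) and -1.12 in YF (SE 0.36, adjusted p = 0.360; -0.76 with 0.889 without YF_GH replicate 1).

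Egr3, a relative induced by many of the same signals, read 9.50 and 8.83 in EA, 8.65 and 9.21 in EA_GH, 7.25 and 7.74 in YF, and 5.96 and 7.25 in YF_GH. Here too no YF or YF_GH array reached the lowest EA or EA_GH array. Averaged over treatments Egr3 was higher in EA cells by 1.997 (SE 0.36, 3.99-fold, adjusted p = 0.0189). That call was lost without EA replicate 1, EA_GH replicate 1, EA_GH replicate 2 or YF replicate 1 (1.83 to 2.14, adjusted p 0.0537 to 0.0760). The value under hormone, 2.32 (SE 0.51), missed the threshold narrowly (adjusted p = 0.0507). Leaving out 1 array moved it from 1.68 without YF_GH replicate 1 to 2.97 without YF_GH replicate 2. The value without hormone was 1.67 (SE 0.51, adjusted p = 0.124). Hormone gave -0.23 in EA (SE 0.51, adjusted p = 0.900) and -0.89 in YF (SE 0.51, adjusted p = 0.541), with overlapping arrays in both mutants, and the sign in EA cells turned when EA replicate 1 or EA_GH replicate 1 was left out. In YF cells it was -0.24 without YF_GH replicate 1 and -1.54 without YF_GH replicate 2. The second Egr3 probe set lay in the low group in all 4 groups.

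Nr4a1, also called Nur77, a receptor known from apoptosis of lymphocytes and from metabolic control, showed the widest spread of the Nr4a family. It read 6.92 and 7.08 in EA, 5.79 and 5.76 in EA_GH, 4.71 and 5.65 in YF, and 2.64 and 3.63 in YF_GH. The groups stood in steps with no overlap, except that EA_GH and YF came close to each other (5.76 against 5.65). With hormone Nr4a1 was higher in EA cells by 2.65 (SE 0.43, adjusted p = 0.0210), and averaged over treatments by 2.23 (SE 0.30, adjusted p = 0.00733). Both YF_GH arrays were under the bound of 4, so the size of these differences is uncertain. The call with hormone was lost without YF_GH replicate 1 (2.15, adjusted p = 0.0554), EA_GH replicate 1 (2.63, 0.0763) or EA_GH replicate 2 (2.66, 0.113). Without hormone the value was 1.82 (SE 0.43, adjusted p = 0.0604). The call with hormone was also lost in a fit of only the groups compared (adjusted p = 0.0573). The hormone values were -1.22 in EA (SE 0.43, adjusted p = 0.765) and -2.05 in YF (SE 0.43, adjusted p = 0.214; -1.55 with 0.423 without YF_GH replicate 1).

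Nr4a2, also called Nurr1, which dopaminergic neurons need, was the flattest of the 3 receptors. Its arrays read 10.08 and 10.01 in EA, 9.93 and 10.16 in EA_GH, 9.88 and 9.89 in YF, and 9.53 and 9.77 in YF_GH. The EA and EA_GH arrays were all above the YF and YF_GH arrays, by a narrow margin (9.93 against 9.89). No comparison passed for this probe set. Averaged over treatments EA minus YF was 0.28 (SE 0.08, 95% interval 0.08 to 0.48, adjusted p = 0.0754), or 0.34 without YF_GH replicate 2. Hormone gave 0.00 in EA (SE 0.11) and -0.24 in YF (SE 0.11, adjusted p = 0.497), or -0.12 without YF_GH replicate 1. The mean of the gene's 6 probe sets did pass, averaged over treatments (0.32, adjusted p = 0.0101) and without hormone (0.34, adjusted p = 0.0360). The probe set 1447863_s_at gave a larger averaged difference of 0.80 (SE 0.20, adjusted p = 0.0522), and 1450750_a_at gave 0.72 (SE 0.21, adjusted p = 0.0897). In EA cells those 2 probe sets had hormone values of -0.57 and -0.72, against 0.00 for the brightest, so the probe sets of this gene disagree, and 3 more lay in the low group.

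Nr4a3, also called NOR1, ran the other way between the mutants. It read 4.54 and 3.62 in EA, 6.19 and 5.55 in EA_GH, 6.18 and 6.06 in YF, and 6.09 and 6.02 in YF_GH. The 2 unstimulated EA arrays were the lowest, and the 6 others lay between 5.55 and 6.19. Without hormone Nr4a3 was lower in EA, by a log2 difference of -2.04 against YF (SE 0.35, adjusted p = 0.0240). One of these EA arrays was under the bound of 4, so the size of this difference is uncertain. With hormone the value was -0.19 (SE 0.35, adjusted p = 0.686), and averaged over treatments it was lower in EA by -1.11 (SE 0.25, adjusted p = 0.0374). The hormone value in EA cells, 1.79 (SE 0.35, 95% interval 0.90 to 2.67), did not pass after adjustment (adjusted p = 0.336), and in YF cells it was -0.06 (SE 0.35). The difference between these responses was 1.85 (SE 0.49, 95% interval 0.60 to 3.10, adjusted p = 0.416). The call without hormone was lost without EA replicate 2 (-1.58, adjusted p = 0.0559), YF replicate 1 (-1.98, 0.112) or YF replicate 2 (-2.10, 0.100), and in a fit of only the groups compared (0.0835). The averaged call was lost without any single EA_GH, YF or YF_GH array (-1.27 to -0.95, adjusted p 0.0548 to 0.115), and with array median centring (0.0517). Both other Nr4a3 probe sets lay in the low group.

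Ier2, a nuclear protein induced by growth factors, read 6.00 and 5.80 in EA, 5.66 and 5.77 in EA_GH, 7.31 and 7.43 in YF, and 5.98 and 4.43 in YF_GH. Both unstimulated YF arrays were above the 6 others, and the YF_GH pair was the most widely spaced. Hormone gave -2.17 in YF cells (SE 0.48, adjusted p = 0.238) and -0.19 in EA cells (SE 0.48, adjusted p = 0.916). The spread of the YF_GH pair weighed on this value: without replicate 1 it was -2.94 and without replicate 2 it was -1.40. Each such fit leaves 1 YF_GH array and drops the spread of that pair, so only sizes are given. The difference between the mutants' responses was 1.98 (SE 0.68, 95% interval 0.25 to 3.71, adjusted p = 0.446), or 2.75 without YF_GH replicate 1 and 1.21 without replicate 2. Without hormone EA minus YF was -1.47 (SE 0.48, adjusted p = 0.152). With hormone it was 0.51 (SE 0.48, adjusted p = 0.452), or 1.28 without YF_GH replicate 1 and -0.26 without replicate 2. The averages moved with these arrays too. The averaged hormone value, -1.18 (SE 0.34, adjusted p = 0.422), was -1.56 without replicate 1 and -0.79 without replicate 2. Averaged EA minus YF, -0.48, was -0.097 without replicate 1 and -0.87 without replicate 2.

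Ier3, also called IEX-1, a stress- and NF-kB-responsive regulator of cell survival, was the one member whose 4 hormone arrays all lay above its 4 unstimulated arrays. It read 10.16 and 10.40 in EA, 10.95 and 10.82 in EA_GH, 10.64 and 10.80 in YF, and 11.18 and 10.96 in YF_GH. The margin between the sets was small (10.82 against 10.80), and 1.3% of probe sets at or above the bound showed this arrangement. The averaged hormone value was 0.48 (SE 0.09, 95% interval 0.26 to 0.70) and did not pass (adjusted p = 0.195). It was 0.61 in EA (SE 0.12, adjusted p = 0.347) and 0.35 in YF (SE 0.12, adjusted p = 0.388). Averaged over treatments EA minus YF was -0.32 (SE 0.09, adjusted p = 0.0698), which passed when only probe sets with a mean of 4 or more were tested (0.0452). Without hormone EA minus YF was -0.44 (SE 0.12, adjusted p = 0.0924).

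Ier5, a regulator linked to heat shock factor and stress responses, was lower in unstimulated EA cells than in unstimulated YF cells, and the difference under hormone did not pass. Its arrays read 10.83 and 10.93 in EA, 10.96 and 10.97 in EA_GH, 11.34 and 11.45 in YF, and 11.02 and 10.93 in YF_GH. The 2 unstimulated YF arrays were above all others, which lay within 10.83 to 11.02. Without hormone EA minus YF was -0.52 (SE 0.06, 1.43-fold, adjusted p = 0.00800), with hormone it was -0.01 (SE 0.06, adjusted p = 0.901), and averaged it was -0.26 (SE 0.04, adjusted p = 0.0142). Leaving out YF_GH replicate 1 turned the sign of the value with hormone, to 0.035. Hormone gave 0.09 in EA (SE 0.06) and -0.42 in YF (SE 0.06, adjusted p = 0.129), and the difference of 0.51 (SE 0.09, 95% interval 0.29 to 0.73) had an adjusted p of 0.253. The probe set 1460009_at gave -0.41 without hormone (SE 0.11, adjusted p = 0.0822), 0.23 with hormone (SE 0.11, adjusted p = 0.273) and -0.086 averaged (SE 0.07, adjusted p = 0.646). Its EA_GH arrays were both above its YF_GH arrays, so the probe sets disagree under hormone. With the mean of the gene's 3 probe sets the averaged value was -0.11 (adjusted p = 0.0750). The averaged call was also lost without EA replicate 1, EA_GH replicate 1 or EA_GH replicate 2 (-0.26 to -0.24, adjusted p 0.0503 to 0.0521). The third Ier5 probe set lay in the low group.

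Srf, the transcription factor that many early genes share as a regulator, was lower in EA cells in both states, though neither single-state call held under all alternatives. It read 10.22 and 10.18 in EA, 10.03 and 9.97 in EA_GH, 10.59 and 10.85 in YF, and 10.78 and 10.65 in YF_GH. All 4 EA and EA_GH arrays lay below all 4 YF and YF_GH arrays. The differences were -0.52 without hormone (SE 0.10, adjusted p = 0.0325), -0.71 with it (SE 0.10, adjusted p = 0.0131) and -0.62 averaged (SE 0.07, 1.53-fold, adjusted p = 0.00404). The call with hormone was lost without YF_GH replicate 1 (-0.65, adjusted p = 0.0557), EA_GH replicate 1 (-0.75, 0.0530) or EA_GH replicate 2 (-0.68, 0.0829). The call without hormone was kept only without YF replicate 1 or either YF_GH array, and otherwise had values of -0.54 to -0.39 (adjusted p 0.0734 to 0.146). It was also lost with array median centring (adjusted p = 0.0731), a fit of only the groups compared (0.107) and the mean of both probe sets (-0.23, 0.378), and that mean gave -0.56 with hormone (0.0501). Hormone gave -0.20 in EA (SE 0.10, adjusted p = 0.869) and 0.00 in size in YF (SE 0.10). The second Srf probe set was in the low group and did not pass in any comparison.

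**Figure D3:**
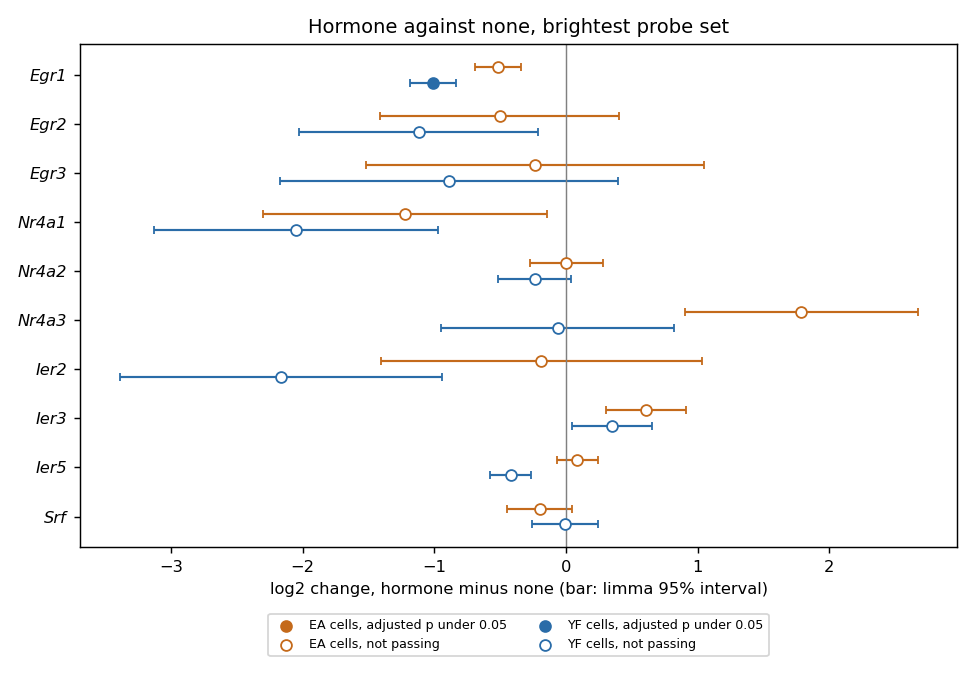
Log2 change with growth hormone (hormone minus none) for the 10 early genes in EA and YF cells, with limma 95% intervals as bars and filled symbols where the adjusted p is under 0.05. Egr1 in YF cells, at -1.01, is the single filled symbol. The unadjusted intervals of EA and YF cells do not overlap for Egr1, Nr4a3 and Ier5, but the difference between the responses did not pass (limma adjusted p = 0.304, 0.416 and 0.253).

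Counted over the members, 0 of 10 passed in the hormone comparison in EA cells, where 0.135% of all probe sets passed. Such shares of calls run over all 45037 probe sets, of which 55% lie in the low group. Each member's brightest probe set lies above that group, so the shares are not like for like. The share of calls among probe sets at or above the bound is not given, here or below. At an unadjusted p under 0.05 there were 2 higher (Nr4a3 and Ier3) and 2 lower (Egr1 and Nr4a1), against 2529 of all probe sets. In YF cells 1 of 10 was lower (Egr1) and 0 higher, where 0.0511% of all probe sets were called lower and 0.18% in either direction. The members' median was -0.19 in EA and -0.65 in YF, beside 0.03 and -0.04 over all probe sets. Over probe sets at or above the bound the medians were -0.02 in EA and 0.05 in YF. Without YF_GH replicate 1 the members' YF median was -0.35. In YF cells 9 of the 10 values were below 0, and for 6 genes both hormone arrays were below both unstimulated ones, an arrangement shown by 23.3% of probe sets at or above the bound. In EA cells 5 genes were arranged that way, against 20.9%, and 4 of the 10 values were above 0. The opposite arrangement was shown by 3 genes in EA cells (Nr4a3, Ier3 and Ier5) and 1 in YF cells (Ier3). Its share of probe sets in each mutant is not given. For the difference between the mutants' responses, 0 of 10 passed (0.02% of all probe sets did). At an unadjusted p under 0.05, 4 did, all of them with the EA value above the YF value (Egr1, Nr4a3, Ier2 and Ier5), against 4385 of all 45037 probe sets in either direction. Averaged over the mutants, 1 of 10 passed, Egr1, where 0.0755% of probe sets were called lower and 0.211% in either direction.

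Between the mutants the counts were larger, as were those of the whole array. Without hormone 3 of 10 were lower in EA (Nr4a3, Ier5 and Srf) and 0 higher, where 5.25% of probe sets were called lower and 5.51% higher (10.8% in all). With hormone 3 were higher (Egr1, Egr2 and Nr4a1) and 1 lower (Srf), beside 4.37% and 5.8% (10.2% in all). Averaged over treatments 4 were higher (Egr1, Egr2, Egr3 and Nr4a1) and 3 lower (Nr4a3, Ier5 and Srf), beside 8.17% and 8.38% (16.5% in all). The median member difference was 0.01 on that average, beside 0.02 over all probe sets, so the genes were divided in direction. Leaving out 1 array at a time gave 1 to 5 members called without hormone (1 without EA replicate 2 or YF replicate 2, 5 without either YF_GH array). With hormone it gave 1 to 5 (1 without either EA_GH array, 2 without YF_GH replicate 1), and on the average 3 to 8 (3 without either EA_GH array, 4 without EA replicate 1). Thy1, Dcn and Cd68 moved with the same contrast, as given above.

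**Figure D4:**
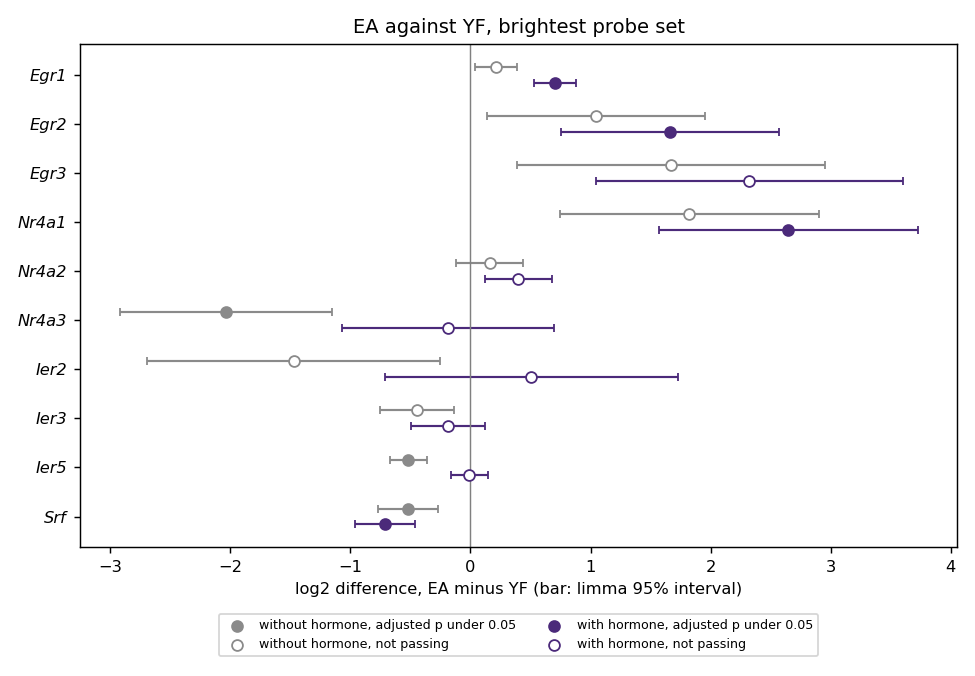
Log2 difference between EA and YF cells (EA minus YF) for the 10 early genes without and with growth hormone, with limma 95% intervals as bars and filled symbols where the adjusted p is under 0.05. Egr1, Egr2 and Nr4a1 are filled above 0 with hormone, Nr4a3 and Ier5 are filled below 0 without hormone, and Srf is filled below 0 in both.

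Among 39 other immediate early genes, of which 35 were above the bound, Fos was the single one that passed with hormone. Fos, the AP-1 subunit whose promoter holds the best-studied serum response element, had mean log2 values of 8.29 in EA, 5.94 in EA_GH, 10.95 in YF and 6.08 in YF_GH. It fell by 4.87 with hormone in YF cells (SE 0.28, adjusted p = 0.0190), and the value in EA cells was -2.34 (SE 0.28, adjusted p = 0.112). No gene of the 39 was called lower in YF cells when any single EA or EA_GH array or YF_GH replicate 1 was left out. On the average over mutants Fos fell by 3.61 (SE 0.20, adjusted p = 0.0104), and the list had 0 lower without EA replicate 1 or EA_GH replicate 1. Averaged over treatments, 9 of the 39 were higher and 15 lower in EA than in YF cells, where 8.17% and 8.38% of all probe sets were called. Examples that were higher are Atf3, a stress-induced repressor (2.55, SE 0.32), Klf4 (1.32, SE 0.07), Arc (1.54, SE 0.14) and Dusp5, a phosphatase of nuclear ERK (1.36, SE 0.14). Examples that were lower are Dusp4, another such phosphatase (-4.78, SE 0.11), Csrnp1 (-1.77, SE 0.25) and the inhibitors of differentiation Id1 and Id3 (-1.70 and -1.95). The Dusp4 mean in EA cells, 2.25, and the Atf3 mean in YF cells, 3.99, were under the bound of 4, so the sizes of those differences are uncertain. Leaving out 1 array at a time gave 6 to 9 higher and 8 to 13 lower on the average (8 without EA_GH replicate 2, 9 without EA replicate 1, EA_GH replicate 1 or YF replicate 2). Without hormone 6 were higher and 9 lower (5.51% and 5.25% of all probe sets), with 3 higher without either EA array, and 3 lower without EA replicate 1 and 4 without YF replicate 2. With hormone 6 were higher and 6 lower (4.37% and 5.8%), with 3 higher without either EA_GH array or YF_GH replicate 1.

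The corepressors and cofactors were mostly without a call. Of 8, Nab2, the corepressor that EGR proteins induce, was higher in EA cells by 0.93 without hormone (SE 0.13, adjusted p = 0.0119) and by 0.72 averaged (SE 0.09, adjusted p = 0.00567). No gene of the 8 was called higher without hormone when any single EA or YF array was left out, while 1 was in every such case for the average. The averaged direction of Nab2 between the mutants was that of Egr1, Egr2 and Egr3. With hormone it was not: mean Nab2 was 10.47 in EA, 10.71 in EA_GH, 9.54 in YF and 10.21 in YF_GH. The hormone values of Egr1, Egr2 and Egr3 in YF cells were -1.01, -1.12 and -0.89, of which only that of Egr1 passed. Whether Nab2 follows the Egr genes was not tested. Mrtfa, the actin-regulated SRF cofactor, was lower by a log2 value of -0.64 (SE 0.14, adjusted p = 0.0370) and Elk1 by -0.16 (SE 0.04, adjusted p = 0.0391), both averaged. These calls were fragile: of the 2, at most 1 was kept whichever array was left out, and 0 without EA replicate 1, either EA_GH array, YF replicate 1 or YF_GH replicate 1. None of the 8 passed with hormone in either mutant, where 0 higher and 1 lower in EA and 1 higher and 0 lower in YF had an unadjusted p under 0.05. Of the 3 relatives, Ier5l was lower in EA cells with hormone by -1.27 (SE 0.26, adjusted p = 0.0424), a count of 1 that was 0 without any single array other than YF_GH replicate 2, and Egr4 was in the low group in all 4 groups. Of the 3 retinoid X receptors, Rxra, a partner of Nr4a1 and Nr4a2, was higher in EA cells without hormone by 0.64 (SE 0.09, adjusted p = 0.0135) and averaged by 0.49 (SE 0.06, adjusted p = 0.00670). None of the 3 was called without hormone when EA replicate 2 or either YF array was left out.

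Cytoskeletal and muscle-type genes known as targets of SRF with MRTF were lower in EA cells in most called cases. Of 18, all above the bound, 11 were lower and 0 higher averaged over treatments, where 8.38% of all probe sets were called lower and 8.17% higher. The list was chosen with earlier results of these data known, so this count is no test of SRF targets as a set. The median difference was -0.42, beside 0.02 over all probe sets. Ankrd1, a mechanosensitive cofactor, had -6.02 (SE 0.16), Cnn1, calponin, had -4.82 (SE 0.19), and the smooth muscle actin genes Actg2 and Acta2 had -2.66 (SE 0.19) and -0.36 (SE 0.05). Without hormone 0 were higher and 6 lower (5.51% and 5.25% of all probe sets). With hormone 6 were lower (3 without EA_GH replicate 2) and 1 higher (5.8% and 4.37%), vinculin (Vcl, 0.34, SE 0.04). The averaged count was 7 when YF_GH replicate 1, EA replicate 1, EA_GH replicate 1, EA_GH replicate 2 or YF replicate 1 was left out. No gene of the 18 passed with hormone in either mutant; at an unadjusted p under 0.05 there were 2 higher and 1 lower in EA and 0 higher and 2 lower in YF. The fibroblast gene Thy1 and Dcn were lower in the same cells, and whether this bears on the SRF genes was not tested.

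**Figure D5:**
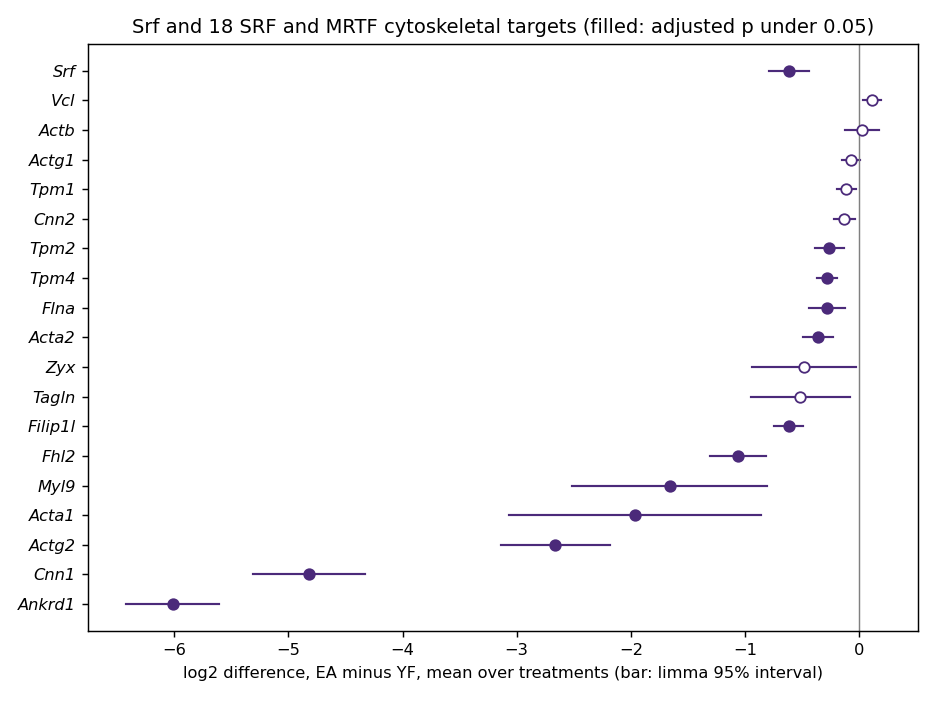
Log2 difference between EA and YF cells (EA minus YF, averaged over treatments) for Srf and 18 cytoskeletal genes known as SRF targets, with limma 95% intervals as bars and filled symbols where the adjusted p is under 0.05. The 11 called targets all lie below 0, from Ankrd1 at -6.02 to Tpm2 at -0.26, and Srf lies at -0.62.

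For the 6 members whose group means spanned at least 1 log2 unit, the named genes most alike in profile were found among 10779 genes above the bound. Likeness is the root mean square difference, in log2 units, between 2 profiles over the 8 arrays after each was centred on its own mean, so a smaller value is a closer profile. The closest profile to Egr1 was that of Zfp760 (0.147), followed by Dnhd1 (0.171) and Ccdc68 (0.172). For Egr2 they were Slc39a8 (0.206), Lpar4 (0.263) and Kcnc2 (0.278), and for Egr3 Zfp455 (0.253), 2810403D21Rik (0.269) and Adhfe1 (0.303). For Nr4a1 they were 2810454H06Rik (0.479), Vsir (0.532) and Kcnj15 (0.566), and for Nr4a3 Ptchd4, Tgif2 (both 0.430) and Jph1 (0.431). For Ier2 they were Klf2 (0.513), Alx1 (0.529) and Zfp36 (0.569), of which Klf2 and Zfp36 are early genes of the list above. On the same scale the members' own centred profiles measured 0.464 for Egr1, 0.854 for Egr2, 1.13 for Egr3, 1.44 for Nr4a1, 0.888 for Nr4a3 and 0.895 for Ier2. The closest profiles of Nr4a3 and Ier2 are thus only loosely alike. No member was among the 3 closest of another. These profiles share the 8 arrays, and the split between EA and YF cells runs through most of them.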

How the data were processed

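RNA from 8 cultures was hybridised to Affymetrix arrays, after TRIzol extraction and biotin labelling per the labels' protocols. The authors deposited 1 log2 value per probe set and array; the submitters' processing notes name GCOS and RMA, and no version or setting is named. The deposited values were used without further normalization. Of 45101 probe sets, 64 controls were left out, 34945 had 1 gene symbol in the platform annotation, 932 several and 9160 none, and genes were named only from the first kind. No 2 columns were identical. Groups came from the labels.

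Differences of group means were tested with limma 3.58.1 (R 4.3.3; lmFit and eBayes over all 8 arrays, 4 residual and 1.26 prior degrees of freedom, two-sided), adjusted over 45037 probe sets; the script was tested on simulated data. The 7 contrasts were hormone in each mutant, their difference, EA against YF in each state, and both averages. Named genes were all members, genes of the other lists that passed (up to 8 a contrast by size), and the 3 most alike profiles. The members and lists were chosen with earlier results of these data known. Alternatives were quantile normalization, median centring, other eBayes options, the filter at 4, other probe sets, the groups compared alone, replicate number as a block, and leaving out each array. RefSeq promoter windows (GRCm38.p6) were searched for exact motif matches.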

Additional observations from a re-analysis of the deposited data

Results flagged for a closer look

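Ier5 was singled out because its arrays lay in opposite orders with hormone in the mutants. Both EA_GH arrays were above both EA arrays, and both YF_GH arrays were below both YF arrays. The margin in EA cells was narrow (10.96 against 10.93), and the value there was 0.09 (SE 0.06, limma adjusted p = 0.869). In YF cells it was -0.42 (SE 0.06, limma adjusted p = 0.129). The share of all probe sets with such opposite orders is not given. The hormone value in EA cells minus that in YF cells was 0.51 (SE 0.09), and limma's adjusted p for this difference was 0.253, so it did not pass. A second Ier5 probe set, 1460009_at, had 0.64 for the same difference (SE 0.15, adjusted p = 0.359).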

How the results depend on the processing

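The 10 genes were recomputed under each alternative, which gave 1244 values; 1100 kept their direction and call, 79 lost a call, 28 gained one, and 33 changed sign without a call. The 4 reversals came from probe sets in the low group: Ier5 (1417613_at, 0.015), Nr4a3 (1421079_at, 0.026, and 1421080_at, 0.020), all averaged over treatments, and Srf (1418256_at, 0.057) without hormone. The cause was not tested. Members called (either direction) changed from 4 to 2 for EA against YF with hormone when only the groups compared were fitted, and from 3 to 5 without hormone with the mean of a gene's probe sets or with only probe sets at 4 or more. In YF cells the single hormone call, Egr1, was lost with only the groups compared (count 0), and this count and that averaged over mutants were 0 with a replicate block or a crossed block. Leaving out 1 array at a time gave 3 to 8 called members for the averaged mutant comparison, 1 to 5 with hormone, 1 to 5 without, 0 to 2 for hormone averaged, 0 to 2 for hormone in YF and 0 for hormone in EA and for the difference. The labels' replicate numbers did not pair the arrays: correlations of same-numbered deviations ran from -0.303 to 0.367, and -0.213 between EA and EA_GH led to the crossed pairing, which was added after seeing the data. With the block, 7 members were called on the averaged mutant comparison, 3 with hormone, where Egr2 lost its call (adjusted p = 0.0649), and 3 without, where Srf lost its call (0.0671) and Nr4a1 gained one (0.0403). The difference and the averages use all 4 groups and could not be fitted on 2. With 2 arrays a group, sizes are imprecise, and values under 4 have an uncertain scale.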
